A study of Homo sapiens with 6 samples.

Results

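Small heat shock proteins and BAG cochaperones are the part of the heat shock response that holds unfolded proteins and hands them to HSP70. The set has 10 members, the small heat shock protein genes HSPB1, CRYAB, HSPB8, HSPB2 and HSPB3 and the cochaperone genes BAG1, BAG2, BAG3, BAG4 and BAG5. They were found on an expression array of LNCaP cells by taking every probe set whose annotation names a member and no other gene, which gave 11 of 22215 probe sets and 9 of 12165 genes. The missing member was HSPB1, whose probe set also names MEIS3, so that probe set is described apart and is not counted. LNCaP cells come from a human prostate cancer metastasis. The tested cultures received 20 µM gedunin, a limonoid from plants of the mahogany family, for 6 h (3 arrays), and the control cultures received DMSO, its solvent, for 6 h (3 arrays). All were grown in RPMI with serum, and arrays of a group are labelled as biological replicates, with no word on what made them separate, so p-values measure only the spread between these arrays.

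Small heat shock proteins share an alpha-crystallin domain, assemble into oligomers and keep unfolding proteins from clumping without using ATP. BAG proteins share a domain that binds the ATPase part of HSP70 and speeds its release of ADP and of the bound protein, and each BAG protein adds other domains that decide where the released protein goes. The 2 families meet in BAG3, which carries both HSP70 and the small heat shock protein HSPB8 and can send their cargo to autophagy. Several genes of both families are targets of HSF1, the transcription factor of the heat shock response.

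The array labelled DMSO 3 stood apart from the other 5, so gedunin 1 to 3 were compared with DMSO 1 and 2, and DMSO 3 is given separately. Its Spearman correlation with the other arrays, across probe sets, was 0.812 to 0.819, against 0.965 to 0.980 among those 5. Of 6 measured luminal prostate markers, 6 were above the array median on all of those 5 arrays and 1 was above it on DMSO 3, where their summed intensity was 154, against 12331 to 12834 with gedunin and 12835 to 13033 on DMSO 1 and 2. Of 8 leukocyte markers, 7 were above the median on DMSO 3, with a sum of 19395, against 712 to 799.9 with gedunin and 879 to 897 on DMSO 1 and 2. Of the luminal markers, KRT18 (0.47) and KRT8 (0.34) rose with gedunin and TMPRSS2 fell by 0.70 in the comparison described next, the calls of KRT8 and TMPRSS2 not being shared by the 1 other probe set of each. In RNA from whole cultures, fewer cells of a type and less RNA per cell cannot be told apart. DMSO 3 carries the LNCaP label but differed from the other 5 arrays in both luminal and leukocyte markers. Fits with all 6 arrays therefore mix this difference with that between gedunin and DMSO. A call lost there is not read as a lack of change with gedunin. Array medians of intensity lay between 31.1 and 32.0, and probe sets near or under them carry little signal.

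Within the set, 4 genes rose with gedunin, CRYAB, BAG3, HSPB8 and BAG2, and 0 fell. The other 5, HSPB2, HSPB3, BAG1, BAG4 and BAG5, did not pass the test on any of their 7 probe sets. The test was limma's moderated test on log2 intensity, with adjusted p-values over all 22215 probe sets and a threshold of 0.05. For genes the background was 8.24% of 12165 rising and 9.36% falling, and for probe sets 7.37% and 7.91%. The median log2 fold change was 0.0080 over the 9 genes and -0.017 over all genes. At an unadjusted p of 0.05 the count of member genes was also 4, beside 30.4% of all genes in either direction. In 4 of the 9 genes every gedunin array lay above both DMSO arrays, beside 20.3% of all genes.

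**Figure D1:**
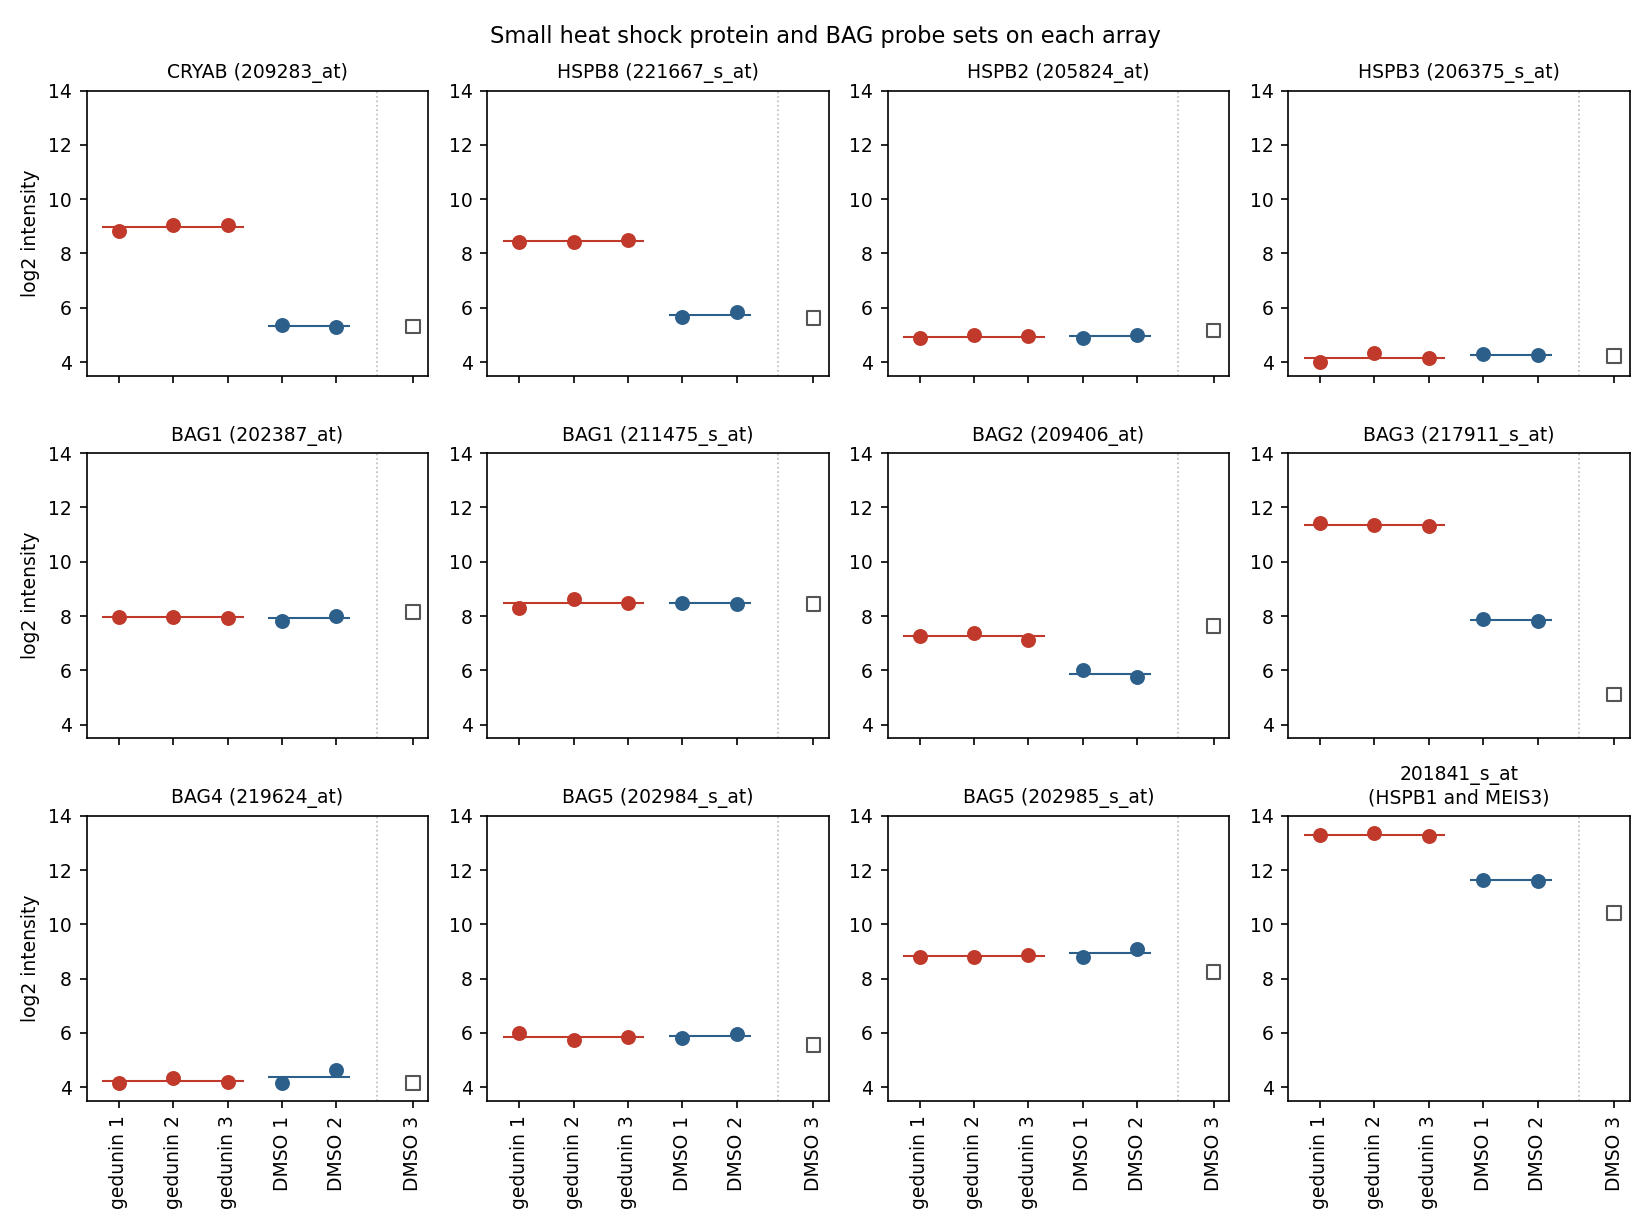
log2 intensity (vertical axis) of the 11 member probe sets and of the probe set naming HSPB1 and MEIS3, on each array (horizontal axis). Red points are gedunin, blue points DMSO 1 and 2 with bars at group means, and the open square is the array labelled DMSO 3. CRYAB, HSPB8, BAG2, BAG3 and the shared probe set show a gap between red and blue, while the points of the other probe sets overlap.

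The windows before the transcription start of 5 members are shown because they hold, or lack, a pair of the units from which heat shock elements are built. A heat shock element is built from inverted repeats of a short unit, and the pairs searched were GAANNTTC and TTCNNGAA, each of which reads the same on both strands. Sequences are RefSeq promoters of build GRCh38.p14, of which only the 250 bases before the annotated start are used, and capitals mark the pairs. They lie at HSPB8, chr12:119178681-119178930, plus strand; BAG2, chr6:57172076-57172325, plus strand; BAG3, chr10:119651130-119651379, plus strand; HSPB1, chr7:76302423-76302672, plus strand; and HSPB3, chr5:54455449-54455698, plus strand.
HSPB8: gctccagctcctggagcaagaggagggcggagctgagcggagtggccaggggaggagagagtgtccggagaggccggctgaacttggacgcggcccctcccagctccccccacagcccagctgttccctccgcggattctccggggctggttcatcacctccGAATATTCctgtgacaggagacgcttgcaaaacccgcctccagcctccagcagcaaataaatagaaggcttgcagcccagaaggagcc
BAG2: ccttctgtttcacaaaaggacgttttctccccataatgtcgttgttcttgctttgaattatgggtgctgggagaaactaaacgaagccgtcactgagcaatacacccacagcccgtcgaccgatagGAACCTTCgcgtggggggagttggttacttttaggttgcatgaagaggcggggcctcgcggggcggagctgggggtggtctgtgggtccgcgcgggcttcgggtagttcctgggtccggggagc
BAG3: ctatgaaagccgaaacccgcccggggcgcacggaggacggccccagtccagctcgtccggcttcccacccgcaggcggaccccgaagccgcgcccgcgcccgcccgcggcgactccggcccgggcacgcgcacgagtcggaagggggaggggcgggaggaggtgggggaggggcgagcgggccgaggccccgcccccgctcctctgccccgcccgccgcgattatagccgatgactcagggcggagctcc
HSPB1: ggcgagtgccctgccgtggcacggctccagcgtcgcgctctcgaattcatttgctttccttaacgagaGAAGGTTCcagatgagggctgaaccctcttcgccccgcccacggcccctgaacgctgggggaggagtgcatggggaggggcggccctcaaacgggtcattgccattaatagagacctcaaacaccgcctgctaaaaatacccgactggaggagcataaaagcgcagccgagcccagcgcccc
HSPB3: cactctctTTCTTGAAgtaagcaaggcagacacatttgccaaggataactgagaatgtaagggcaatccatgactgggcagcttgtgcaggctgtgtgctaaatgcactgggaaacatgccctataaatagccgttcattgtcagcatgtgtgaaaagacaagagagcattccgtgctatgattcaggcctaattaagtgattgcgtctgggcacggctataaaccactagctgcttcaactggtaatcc

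HSPB8 and BAG2, which rose, each held 1 pair of the first form, at positions -88 to -81 and -124 to -117 from the start. HSPB1 held 1 of the same form at -182 to -175. HSPB3, which was not called, held 1 pair of the second form at -242 to -235. BAG3, among the most changed members, held none in this window, nor did BAG1 or either annotated start of BAG5. Among 35114 promoter windows of the same length, 5.78% held the first form, 6.62% the second and 11.6% either. The longer element of 3 alternating units, searched on both strands, was in 0.441% of all windows and in 0 of the 8 member windows. In all, windows of 7 of the 10 members were searched. CRYAB and HSPB2 had no promoter entry. Member windows on chromosome 8, where BAG4 lies, were left out of the search, so BAG4 may or may not hold a pair. These genes are named only. A match describes these letters and is not a binding site shown in these cells.

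**Figure D2:**
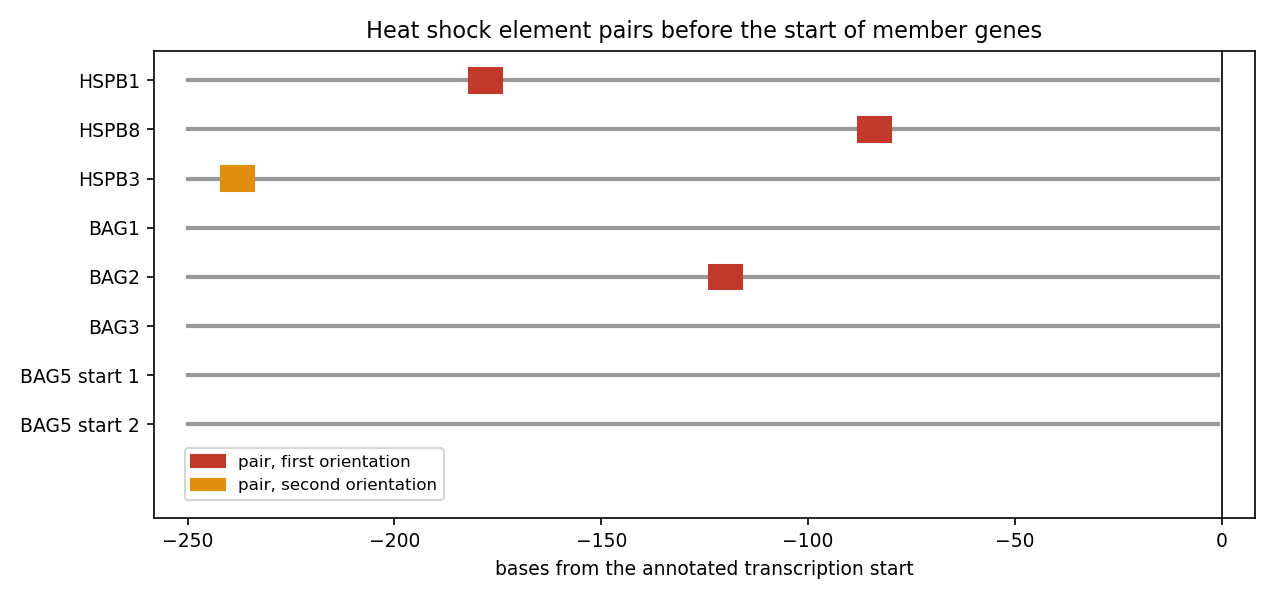
Positions of heat shock element pairs (coloured boxes) in the 250 bases before the annotated transcription start of 7 member genes, with 2 starts for BAG5. The horizontal axis is the distance from the start in bases. Red marks GAANNTTC in HSPB1, HSPB8 and BAG2 and orange marks TTCNNGAA in HSPB3, and the other lines carry no box.

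Among the small heat shock proteins, CRYAB changed most. CRYAB, also called HSPB5, is the alpha-B chain of lens crystallin and is abundant in muscle. It read 458, 530.0 and 529 with gedunin, against 41.0 and 38.9 on DMSO 1 and 2. Each gedunin array was far above both controls, which lay just above the array median, so the size of the rise is not exact. The rise was 12.6-fold (95% interval 10.9 to 14.7), a log2 fold change of 3.66 ± 0.10 (moderated SE, n = 3 and 2 arrays, limma adjusted p = 1.48e-08). By log2 fold change it ranked 10th of 12165 genes. On the array labelled DMSO 3, which stood apart as described above, it read 39.5, close to DMSO 1 and 2. With all 6 arrays the log2 fold change was 3.66 (limma adjusted p = 3.42e-04).

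HSPB8 is the small heat shock protein that pairs with BAG3. It read 345, 339.6 and 358 with gedunin, against 50.1 and 57.4 on DMSO 1 and 2. The gedunin arrays differed among themselves by 0.075 on the log2 scale and lay at least 2.57 above the higher control. The rise was 6.48-fold (95% interval 5.60 to 7.50), a log2 fold change of 2.70 ± 0.09 (n = 3 and 2 arrays, limma adjusted p = 7.98e-08). DMSO 3 read 49.5, and all 6 arrays gave 2.73 (limma adjusted p = 0.00128).

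HSPB2 and HSPB3 are small heat shock proteins known mainly from muscle, where they bind each other. HSPB2 read 29.4, 31.8 and 30.7 with gedunin, against 29.3 and 32.3 on DMSO 1 and 2. Both groups overlapped and lay at the array median. The fold was 0.997 (95% interval 0.865 to 1.15, limma adjusted p = 0.983). HSPB3 read 16.1, 20.3 and 17.6 with gedunin, against 19.4 and 19.1 on DMSO 1 and 2, under the median on all 5 arrays. Its fold was 0.929 (95% interval 0.785 to 1.10, limma adjusted p = 0.609). For both genes a signal this dim leaves little room for a fall to be seen.

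CRYAB and HSPB2 are neighbours on chromosome 11, with overlapping spans in the RefSeq gene table, and CRYAB alone was called. HSPB2 lay at the array median, so the sizes of the changes of these neighbours are not compared. The other neighbour of CRYAB, CFAP68, was not called and lay under the median (15.0 with gedunin and 15.3 on DMSO 1 and 2). Over all members, 11 of 18 neighbouring genes were measured, of which 1 rose and 0 fell, beside 8.24% of all genes rising. The 1 was INPP5F, a phosphoinositide phosphatase gene next to BAG3, with a log2 fold change of 0.38 ± 0.10 (n = 3 and 2 arrays, limma adjusted p = 0.0266). INPP5F was dim too, with means of 47.4 with gedunin and 36.5 on DMSO 1 and 2, not far above the array medians.

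HSPB1, or HSP27, is the small heat shock protein best known from stressed epithelial cells. Its probe set, 201841_s_at, is annotated to HSPB1 and MEIS3 together, although the transcript it was designed on belongs in the RefSeq gene table to HSPB1. This probe set read 10052, 10549.9 and 9790.1 with gedunin, against 3199 and 3106.5 on DMSO 1 and 2. The arrays of a group lay within 0.11 of each other on the log2 scale, and the groups were 1.61 apart at the nearest. Its log2 fold change was 1.68 ± 0.09 (n = 3 and 2 arrays, limma adjusted p = 1.07e-06). DMSO 3 read 1365, below every other array, and with all 6 arrays the value was 2.09 (limma adjusted p = 0.0691). How much of the signal comes from either gene was not tested.

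BAG3 rose most among the cochaperones. It links HSP70 and HSPB8 and steers their cargo to selective autophagy. BAG3 read 2738, 2595 and 2531 with gedunin, against 236 and 224 on DMSO 1 and 2. The arrays of each group lay within 0.11 of each other on the log2 scale, and the groups were 3.42 apart at the nearest. The rise was 11.4-fold (95% interval 9.93 to 13.0), a log2 fold change of 3.51 ± 0.09 (n = 3 and 2 arrays, limma adjusted p = 9.23e-09), which ranked 13th among genes. On the array labelled DMSO 3 it read 34.6, which is 2.73 lower on the log2 scale than the mean of DMSO 1 and 2. That reading lay just above the median of its array, 32.0, so the size of the gap is not exact. With that array among the controls the log2 fold change was 4.42 ± 0.77 and the call was lost (limma adjusted p = 0.0787).

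BAG2 is known to inhibit CHIP, the ubiquitin ligase that marks HSP70 clients for breakdown. It read 155, 168 and 139 with gedunin, against 64.8 and 53.8 on DMSO 1 and 2. Both groups spanned 0.27 on the log2 scale and were 1.10 apart at the nearest. The rise was 2.60-fold (95% interval 2.18 to 3.10), a log2 fold change of 1.38 ± 0.11 (n = 3 and 2 arrays, limma adjusted p = 3.22e-05). DMSO 3 read 199.5, above all gedunin arrays, and with all 6 arrays BAG2 was not called (0.79 ± 0.51, limma adjusted p = 0.646).

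BAG1, the founding member of the family, binds HSP70 and the proteasome. Its probe set 211475_s_at read 316, 399 and 355 with gedunin, against 358 and 349 on DMSO 1 and 2. Probe set 202387_at read 251, 252 and 241 with gedunin, against 228 and 255 on DMSO 1 and 2. On each probe set the groups overlapped. The folds were 1.01 (95% interval 0.850 to 1.19, limma adjusted p = 0.975) for 211475_s_at and 1.03 (95% interval 0.894 to 1.18, limma adjusted p = 0.828) for 202387_at. BAG1 was well above the array median, so a change as large as that of BAG2 lies outside both intervals.

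BAG5, which has several BAG domains and is known to inhibit the ubiquitin ligase parkin, had 2 probe sets as well. On the brighter, 202985_s_at, it read 449, 441 and 469 with gedunin, against 447 and 539.7 on DMSO 1 and 2. On 202984_s_at it read 64.5, 53.6 and 57.1 with gedunin, against 56.6 and 61.7 on DMSO 1 and 2. Groups overlapped on each, with folds of 0.922 (95% interval 0.787 to 1.08, limma adjusted p = 0.536) for 202985_s_at and 0.985 (95% interval 0.839 to 1.16, limma adjusted p = 0.925) for 202984_s_at. BAG4, also called silencer of death domains, holds the tumour necrosis factor receptor TNFRSF1A inactive. It read 17.8, 20.5 and 18.3 with gedunin, against 17.6 and 24.8 on DMSO 1 and 2, under the median on all 5 arrays. The DMSO values differed by 0.49 on the log2 scale, the widest span within a group among the members, and the fold was 0.901 (95% interval 0.727 to 1.12, limma adjusted p = 0.558).

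**Figure D3:**
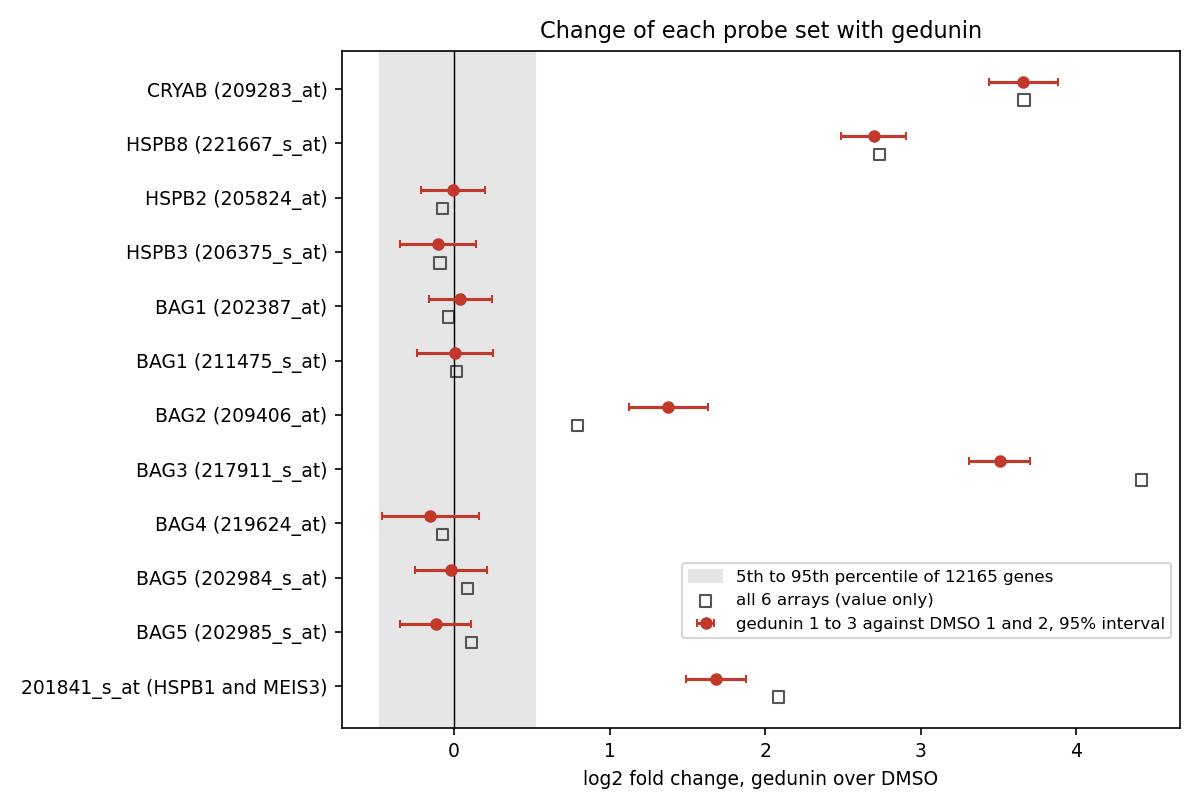
log2 fold change, gedunin over DMSO (horizontal axis), of each probe set. Red points with 95% intervals come from gedunin 1 to 3 against DMSO 1 and 2, open squares from all 6 arrays, and the grey band spans the 5th to 95th percentile of 12165 genes (-0.48 to 0.52). The 4 called member probe sets and the probe set naming HSPB1 and MEIS3 lie right of the band, and the 7 others lie inside it.

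The sizes of the 4 rises were compared within arrays. BAG3 and CRYAB differed least, with a log2 fold change 0.15 higher for CRYAB and overlapping arrays (two-sided exact permutation test over the 10 ways to split 5 arrays, p = 0.4, adjusted over 7 pairs 0.4). CRYAB exceeded HSPB8 by 0.96 and BAG2 by 2.28, BAG3 exceeded HSPB8 by 0.81 and BAG2 by 2.13, and HSPB8 exceeded BAG2 by 1.32. In these 5 pairs the gedunin and control arrays did not overlap, and each gave the smallest p the design allows (exact permutation p = 0.1, adjusted 0.117). The other pair, CRYAB and HSPB2, is not read because HSPB2 lay at the array median. Since no p under 0.1 was possible, the test cannot settle the order of the 4 rises. As a description, the order of CRYAB and BAG3 was within the spread of the arrays, while HSPB8 and then BAG2 lay lower on each gedunin array. With log2(value + 16) in place of log2(value), CRYAB had 3.22 and BAG3 3.42, so their order turned. HSPB8 (2.38) and BAG2 (1.17) stayed lower.

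The array labelled DMSO 3 read the members unevenly. CRYAB, HSPB8, HSPB3 and one BAG1 probe set, 211475_s_at, lay within 0.12 log2 of the mean of DMSO 1 and 2. BAG2 lay 1.76 above that mean and BAG3 2.73 below it, where BAG3 was close to the array median. BAG5 lay 0.69 below it on 202985_s_at and 0.33 below it on 202984_s_at, and the other members lay within 0.24 of it. With all 6 arrays CRYAB and HSPB8 were called, 2 of 9 genes, and 0 fell, beside 1.31% of all genes rising and 0.362% falling in that fit. The gedunin arrays of CRYAB, HSPB8 and BAG3 lay above all 3 DMSO arrays, beside 12.3% of all genes, and those of BAG2 did not.

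**Figure D4:**
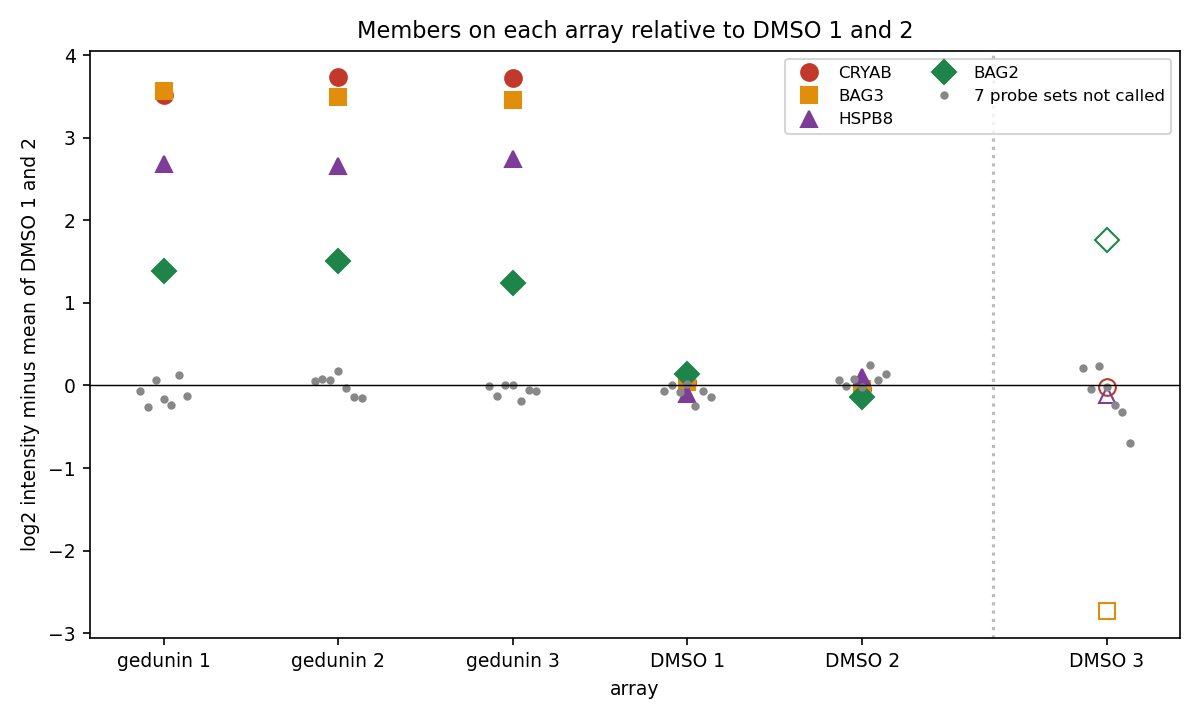
log2 intensity minus the mean of DMSO 1 and 2 (vertical axis) on each array (horizontal axis). Coloured symbols are the 4 called genes, open on the array labelled DMSO 3, and grey dots the 7 probe sets not called. CRYAB and BAG3 lie together above HSPB8 and BAG2 on the gedunin arrays, while on DMSO 3 BAG2 stands at 1.76 and BAG3 at -2.73.

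The genes whose pattern was most like those of CRYAB and BAG3 were found by Euclidean distance over the 5 arrays, on log2 differences from the mean of DMSO 1 and 2, with members left out. The 5 nearest genes outside the set to CRYAB were AKR1C1 (distance 0.23), DNAJB1 (0.27), NIBAN1 (0.33), HSPA4L (0.51) and ATF3 (0.59). The 5 nearest genes outside the set to BAG3 were HSPA4L (0.20), NIBAN1 (0.24), DNAJB1 (0.27), HSPH1 (0.38) and TRIB3 (0.44). DNAJB1 is an HSP40 partner of HSP70, HSPA4L and HSPH1 are HSP110 proteins, AKR1C1 is an aldo-keto reductase, ATF3 a stress transcription factor and TRIB3 a pseudokinase. CRYAB and BAG3 themselves were 0.36 apart. This distance counts the size of a change as well as its shape over the arrays.

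Partners of these families were taken from 7 lists, which hold 53 genes, 40 of them measured. Of these, 17 rose and 1 fell, with a median log2 fold change of 0.17, beside 8.24% rising, 9.36% falling and a median of -0.017 over all genes. The lists, like the members, were chosen with earlier results of these data known. The counts in them are therefore not independent of those results. Of 3 other small heat shock proteins measured, 0 rose, CRYAA (-0.15) and HSPB7 (0.11) were not called, and HSPB6 fell by 0.44 (limma adjusted p = 0.0438). HSPB6 was dim, between 20.2 and 34.4 on the 5 arrays, and the call was lost without DMSO replicate 1 (-0.24), without gedunin replicate 1 (-0.45) and without gedunin replicate 2 (-0.38).

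HSP70 proteins, which the BAG domain binds, rose in 6 of 7 cases and fell in 0, with a median log2 fold change of 1.12. HSPA6, strictly stress-inducible, rose by 6.47 ± 0.13 (n = 3 and 2 arrays, limma adjusted p = 6.42e-09). It read 28.2 and 20.9 on DMSO 1 and 2, and HSPA1A read 18.2 and 27.4, all under the array median, so both changes are set against background and their sizes are not exact. HSPA1A rose by 3.86 and HSPA1B by 2.68, near-identical copies whose probe sets can share signal. HSPA1L, their relative, rose by 1.12, and HSPA8, the constitutive HSP70, rose by 0.75. The remaining riser was HSPA14 (0.45). With all 6 arrays 2 of the 7 were called, HSPA6 (6.46) and HSPA8 (0.80), while HSPA1A (2.63), HSPA1B (3.89), HSPA1L (1.91) and HSPA14 (0.063) were not. Genes listed as other nucleotide exchange factors of HSP70 proteins rose in 4 of 8 cases and fell in 0, with a median of 0.34. These were HSPA4L (3.44 ± 0.10, limma adjusted p = 3.60e-08), HSPH1 (3.31), HSPA4 (1.08) and the endoplasmic reticulum protein HYOU1 (0.62, not called with all 6 arrays). BAG6, a further BAG family protein that guides membrane proteins, is counted in that list and not in the set. It had -0.14 ± 0.09 (limma adjusted p = 0.351).

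Of 8 measured genes listed as partners of BAG3 in selective autophagy, 4 rose and 0 fell, with a median of 0.35. Whether they work with BAG3 in these cells was not tested. The cargo receptor SQSTM1 rose by 1.99 ± 0.10 (n = 3 and 2 arrays, limma adjusted p = 6.68e-07), with 1 of its 3 other probe sets also rising. The autophagosome proteins MAP1LC3B and GABARAPL1 rose by 1.81 and 1.44, and the early autophagy factor WIPI1 by 0.56, a call lost without DMSO replicate 2 (0.46) and not made on its 1 other probe set. With all 6 arrays MAP1LC3B was called (1.89), while SQSTM1 (2.59), GABARAPL1 (1.83) and WIPI1 (0.23) were not. STUB1, which encodes CHIP, had -0.20 ± 0.08 (limma adjusted p = 0.168).

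Of 5 measured genes listed as clients and partners of BAG1, BAG4 and BAG5, 3 rose and 0 fell, with a median of 0.54. Whether TNFRSF10B, 1 of the 3, binds any of these BAG proteins was not tested. The death receptor TNFRSF10B rose by 1.79 ± 0.11 (n = 3 and 2 arrays, limma adjusted p = 3.46e-06), TNFRSF1A, the receptor that BAG4 holds, by 1.25, and the ubiquitin ligase SIAH1 by 0.54, a call lost without DMSO replicate 2 (0.41). With all 6 arrays these were 2.26, 2.02 and 0.82, and none of the 3 was called. BCL2, which binds BAG1, had 0.32 (limma adjusted p = 0.0518).

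None of the 4 measured heat shock factors and their regulators was called by limma, and 0 of the 5 kinases that phosphorylate small heat shock proteins. Of the 4, HSF4 and HSF2BP were at or below the array median on all 5 arrays and carry little signal. HSF1 had a log2 fold change of -0.060 ± 0.10 (limma adjusted p = 0.773). Medians were -0.092 for the factors and -0.12 for the kinases. At an unadjusted p of 0.05, 0 of the factors and 2 of the kinases passed, beside 30.4% of all genes.

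**Figure D5:**
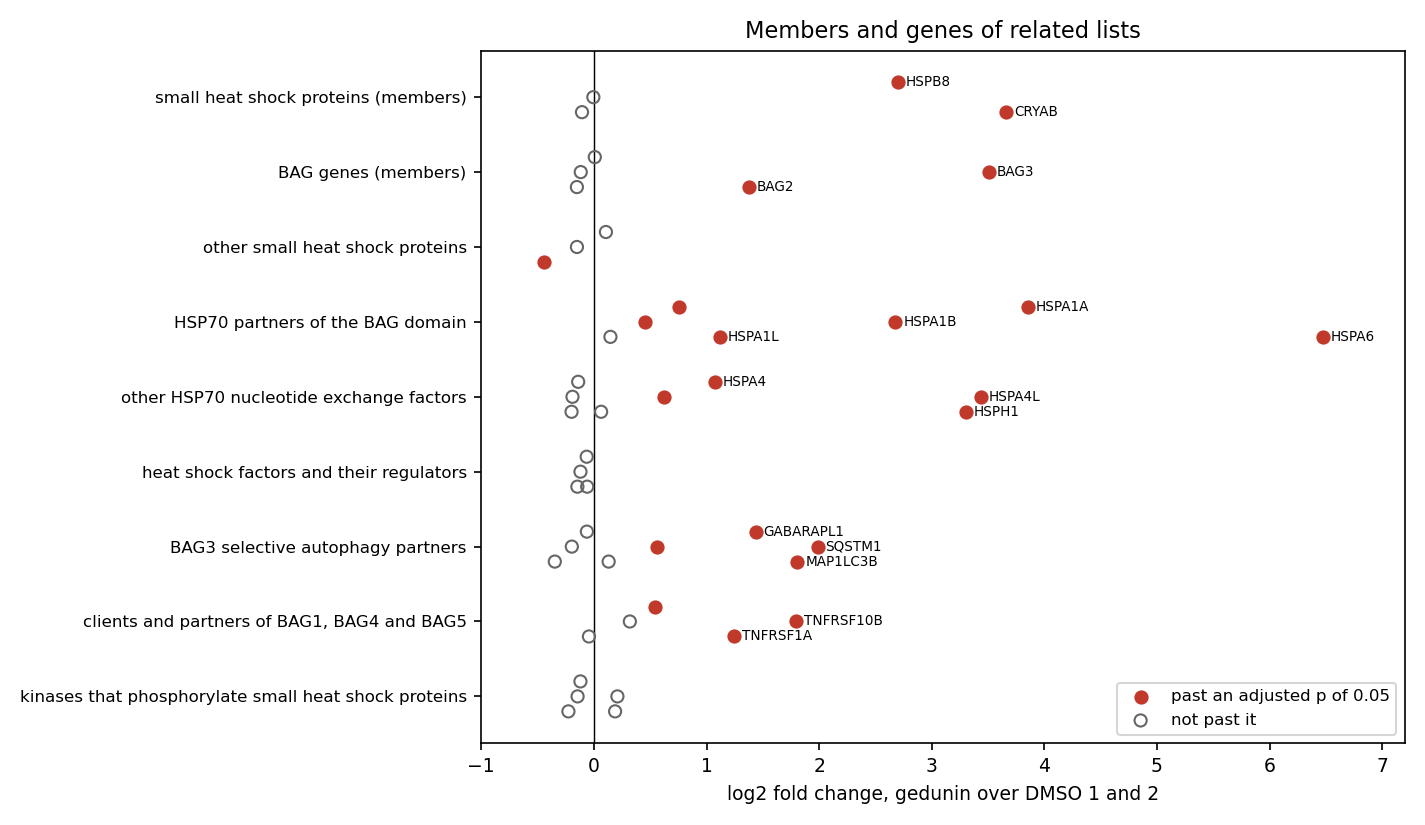
log2 fold change, gedunin over DMSO 1 and 2 (horizontal axis), of the measured members and of the genes of 7 related lists (rows). Filled points passed an adjusted p of 0.05 and open points did not. Filled points reach 3.66 in the small heat shock proteins and 6.47 in the HSP70 list, while the rows of heat shock factors and of kinases hold open points only.

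CRYAB, HSPB8, HSPB2 and HSPB3 are abundant in muscle, so muscle markers were read beside them. Of 7 measured, 6 were at or below the array median on all 5 arrays, among them DES, MYH11 and CKM. Their summed intensity was 193 to 199.8 with gedunin and 165 to 168 on DMSO 1 and 2, and 1, ACTA2, rose (0.76), while its 1 other probe set did not. Of 6 fibroblast markers 5 were at or below the median, and COL1A1 rose (0.75) on 1 of its 4 probe sets. Of 3 basal epithelial markers 2 were at or below the median, and 0 were called by limma, also at an unadjusted p of 0.05. Their part in the results was not tested. Leukocyte marker sums, given above, were lower with gedunin than on DMSO 1 and 2, with LCP1 alone above the median, and 0 of the 8 were called by limma (1 at an unadjusted p of 0.05, beside 30.4% of all genes).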

How the data were processed

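The authors deposited 1 intensity for each probe set on each array. RMA is the only tool in the submitters' processing notes, its version and the arrays it was run on together being not given in the sources used here. RMA corrects background, equalises array distributions and summarises probes, and compresses folds of dim probe sets. Intensities were linear and were log2-transformed here. Precision is limited by the number of arrays, and no detection calls were used. Of 22215 probe sets, 19724 name 1 gene, 568 several and 1923 were not listed in the platform annotation of the table supplied. A gene took its probe set with the highest mean over the 5 arrays.

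Gedunin 1 to 3 were compared with DMSO 1 and 2 by limma (version 3.58.1, R 4.3.3), without trend or a filter on dim probe sets, with Benjamini-Hochberg adjustment over all probe sets. Differences between members used exact permutation tests. All members were named. So were up to 4 called genes per list, HSF1, HSPA8, HSPA1A, STUB1, SQSTM1, BAG6 and GAPDH, and the 5 genes nearest in pattern to each of the 2 most changed members. One further gene of the naming rule is not reported here. Other genes named are exceptions, chosen after their values were seen. The code was tested on simulated data. The members and lists were chosen with earlier results of these data known. GAPDH had a log2 fold change of 0.020 ± 0.09 (SE), and ACTB rose by 0.32 ± 0.09 (adjusted p = 0.0347). The alternatives are those named in the closing section.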

Additional observations from a re-analysis of the deposited data

Results flagged for a closer look

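On the array labelled DMSO 3, which the comparison leaves out, BAG2 lay 1.62 on the log2 scale above the higher of DMSO 1 and 2, at 199.5 against 64.8 and 53.8. The probe set naming HSPB1 and MEIS3, which lies outside the set, separated the groups by 1.61 on the log2 scale between the lowest gedunin array and the higher of DMSO 1 and 2.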

How the results depend on the processing

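CRYAB, HSPB8, BAG2 and BAG3 were called in the fit with a replicate block (3.63, 2.67, 1.45 and 3.53), without each replicate, with every rescaling and variance model tried, with the dim filter, with log2(value + 16) and at an adjusted p of 0.01; the block changed no call of a member or of another gene named by rule. Groups share replicate numbers by label only, and the differences between replicates 1 and 2 correlated by 0.0033 between gedunin and DMSO, over 2 pairs. Gedunin 3 has no DMSO array of its number in the comparison. For these 4 genes the block therefore gave the log2 fold changes of the fit without gedunin replicate 3. Those fits are not separate checks of size. Averaging a gene's probe sets also gave 4 member genes. The count of 4 became 2 with all 6 arrays, also for genes, and 2 without _x_at and _s_at probe sets, which drops those of HSPB8 and BAG3. Under that drop 714 probe sets rose and 872 fell (1638 and 1758 in the comparison), and 9 list genes rose and 0 fell. With all 6 arrays 252 rose and 60 fell, and 6 list genes rose and 0 fell. At an adjusted p of 0.01, 1021 probe sets rose and 848 fell. Centred on GAPDH and ACTB, which moved the median of all genes to -0.19, 1041 rose and 5226 fell (16.6% rising against 48.2%), 9 list genes fell, and STUB1 (-0.37) and BAG6 (-0.31) passed. The 1 list gene that fell became 0 with the dim filter, array-median centring, log2(value + 16) and 0.01. Without each replicate, 942 to 1536 probe sets rose and 811 to 1528 fell, the lowest of each without DMSO replicate 1 or 2, and 0 to 1 list genes fell.

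Signs of uncalled values turned. With all 6 arrays BAG1 on 202387_at had -0.037, BAG5 0.087 and 0.11, STUB1 0.27 and BAG6 0.12. Centring on GAPDH and ACTB gave -0.13 and -0.16 for BAG1 and -0.15 for GAPDH, array medians 0.016 for HSPB2, and a second quantile normalization 0.014 for HSPB2, -0.0077 for BAG1 on 211475_s_at and 0.0021 for BAG5 on 202984_s_at. Without each replicate HSPB2 had -0.076 to 0.066, BAG1 -0.039 to 0.12 and -0.076 to 0.091, BAG4 -0.40 to 0.093, BAG5 -0.096 to 0.041 and -0.25 to 0.019, HSF1 -0.17 to 0.046 and GAPDH -0.011 to 0.040. Without 1 DMSO replicate, the lone control array is assumed to vary like the gedunin arrays. Each centring shifts all log2 fold changes by the same amount, and ACTB, itself used for centring, rose by 0.32 in the comparison. The cause of the other moves was not tested.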
